A study of Mus musculus with 11 samples.

Results

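The 7 genes Gas5, Snhg1, Snhg3, Snhg5, Snhg6, Snhg8 and Snhg12 are spliced host genes of small nucleolar RNAs (snoRNAs). They were chosen by symbol, as a listed set of noncoding host genes, and make up 7 of the 55487 Ensembl gene identifiers in the deposited table; all 7 were found there once and all 7 passed the filter on low values in every comparison. RNA of C57BL/6 mice was sequenced from 2 sources, spinal cord and cultured fetal fibroblasts (MEF). The groups were 3 S87L and 3 wild-type spinal cord libraries, and 2 S87L and 3 wild-type MEF libraries. S87L mice carried the Morc2a variant p.S87L on 1 allele and a wild-type copy on the other; Morc2a is a chromatin-bound ATPase that acts with the HUSH silencing complex, and S87L puts leucine in place of serine. The labels give no other allele, no treatment and no age. They leave unclear which libraries stem from different animals or cultures, so the p-values reflect the spread among libraries, part or all of which may be technical.

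snoRNAs are short stable RNAs of the nucleolus that guide chemical changes to ribosomal RNA. Box C/D snoRNAs direct methylation of the ribose, box H/ACA snoRNAs direct the change of uridine to pseudouridine, and a few act in the cutting of the ribosomal RNA precursor. In mammals most are cut out of the introns of a host transcript, and in the hosts studied here the spliced exons code for no known conserved protein: in several of them the exons start with a pyrimidine tract like that of ribosomal protein mRNAs, and the spliced RNA of mouse Gas5 is known to be engaged by ribosomes and destroyed by nonsense-mediated decay (NMD), the pathway that removes transcripts with an early stop codon. The level of a host transcript in total RNA is therefore not the level of the snoRNAs made from it.

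The annotation (GENCODE M21, mouse build GRCm38) places 29 snoRNA features inside the 7 genes on the host's strand. Snord80 in Gas5 and Snora16a in Snhg12 are each listed under 2 identifiers at nearly the same place, so counts of features exceed counts of loci. Gas5, the gene found through growth arrest of mouse fibroblasts, lies at chr1:161034422-161038539 on the plus strand and holds 10. Snhg1, the host of U22, lies at chr19:8723475-8726443 on the plus strand and holds 8. Snhg5, the host of the U50 snoRNAs, lies at chr9:88521050-88522929 on the minus strand and holds 2, and Snhg6 lies at chr1:9941959-9944118 on the minus strand and holds 1. These 4 genes hold Snord features, Gm-named features and Mir5117, the name of 1 feature of snoRNA type in Gas5. Snhg3, the host of U17, lies at chr4:132348014-132353686 on the minus strand and holds 2 Snora features, and Snhg8 lies at chr3:123507552-123508404 on the minus strand and holds 1. Snhg12, at chr4:132308623-132311024 on the plus strand, holds 4 Snora features and Snord99, so that both classes stand in 1 host. Snhg12 and Snhg3 lie on opposite strands of the same chromosome.

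One snoRNA of each host whose class could be read from the letters is printed here, with both copies for Snhg5, because these are the products that the hosts are known for and that the levels given here do not measure. The sequences are GENCODE M21 transcripts, 5′ to 3′. In box C/D snoRNAs the capitals mark box C (TGATGA, near the 5′ end) and box D (CTGA, near the 3′ end). In box H/ACA snoRNAs they mark the ACA near the 3′ end. Snord80 of Gas5 (chr1:161037601-161037681, plus strand), Snord50a and Snord50b of Snhg5 (chr9:88521529-88521600 and chr9:88521797-88521868, minus strand) and Snord87 of Snhg6 (chr1:9942463-9942549, minus strand) guide methylation of the large ribosomal RNA. Snora73b of Snhg3 (chr4:132352322-132352526, minus strand) is a U17 RNA, which acts in precursor cutting, and Snora24 of Snhg8 lies at chr3:123507937-123508066 on the minus strand. For Snhg1 the box C/D feature Gm22744 (chr19:8725092-8725156, plus strand) is given, and for Snhg12 Snord99 (chr4:132310691-132310764, plus strand).
Snord80: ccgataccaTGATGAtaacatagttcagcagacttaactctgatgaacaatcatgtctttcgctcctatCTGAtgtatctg
Gm22744: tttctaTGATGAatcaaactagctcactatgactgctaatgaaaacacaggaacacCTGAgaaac
Snord50a: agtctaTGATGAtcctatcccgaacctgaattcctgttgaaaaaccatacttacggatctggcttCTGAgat
Snord50b: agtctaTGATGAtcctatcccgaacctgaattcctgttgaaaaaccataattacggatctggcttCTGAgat
Snord87: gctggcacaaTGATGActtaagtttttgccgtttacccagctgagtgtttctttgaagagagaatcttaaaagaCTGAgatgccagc
Snora73b: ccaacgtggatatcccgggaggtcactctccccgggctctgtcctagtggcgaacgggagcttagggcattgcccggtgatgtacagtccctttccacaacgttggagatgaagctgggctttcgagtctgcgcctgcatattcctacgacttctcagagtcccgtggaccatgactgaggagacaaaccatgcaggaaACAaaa
Snora24: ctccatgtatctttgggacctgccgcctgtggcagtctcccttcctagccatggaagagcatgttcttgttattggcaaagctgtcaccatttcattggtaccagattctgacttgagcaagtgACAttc
Snord99: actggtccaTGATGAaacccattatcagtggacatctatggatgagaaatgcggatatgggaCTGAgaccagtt

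The snoRNA features themselves had almost no reads in the table. Of the 29 features, the 26 that lay wholly inside a merged exon of their host were listed at 0 in all 11 libraries. The 3 others lay in an intron or partly in an exon, and each was above 0 in at least 2 libraries. Among all deposited identifiers, 156 of 157 snoRNA features inside an exon of another gene were at 0 in all libraries (99.4%), against 212 of 479 features in an intron (44.3%). Of the features partly in an exon 39 of 57 were at 0 throughout (68.4%), as were 758 of 814 that lay outside other genes (93.1%), so a share near that of exonic features was also found where no other gene was annotated. Whether snoRNA sequence was read and not assigned, or not read at all, cannot be told apart from these values.

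**Figure D1:**
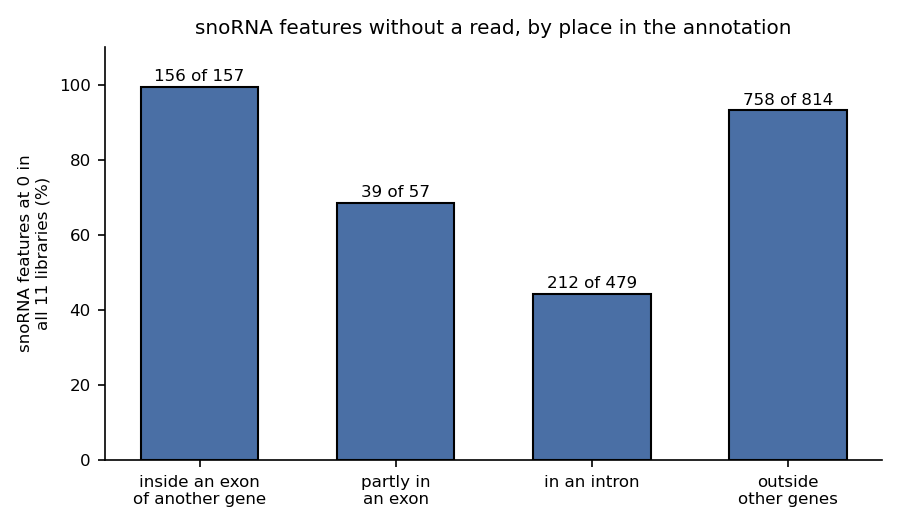
The bars give the share of annotated snoRNA features listed at 0 in all 11 libraries, in percent, by the place of the feature in the annotation, with the numbers of features above each bar. The bar for features inside an exon of another gene stands at 99.4%, the bar for features partly in an exon at 68.4%, the bar for features in an intron at 44.3% and the bar for features outside other genes at 93.1%.

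Snora73b, in an intron of Snhg3, was the one feature of the 29 with reads in every library. It rested on 8, 4 and 8 reads in S87L cord and 11, 8 and 2 in wild-type cord, and on 17 and 13 reads in S87L MEF and 10, 12 and 18 in wild-type MEF. The groups overlapped in both tissues, and at such depths no genotype difference could be resolved. Snord87 had 3 reads in S87L MEF replicate 1 and 2 each in wild-type MEF replicates 1 and 2, and 0 in the other 8 libraries. Snora73a had 1 and 2 reads in wild-type MEF replicates 2 and 3 and 0 elsewhere. Snora73a and Snora73b are near-identical copies, so a read may fit both, and the deposited values do not show how such reads were counted.

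The level of a gene in FPKM (fragments per kilobase of gene length scaled to a total of reads) depends on the length it is divided by, and for these hosts that length varied widely. The deposited values moved in whole reads once multiplied by 1 length per gene, and for 6 of the 7 that length was the merged exon length of GENCODE M21. It was 3760 bases for Gas5, 2969 for Snhg1, 2402 for Snhg12, 1146 for Snhg6, 986 for Snhg3 and 853 for Snhg8. For Snhg5 a length of 3634 bases made the reads whole in all 11 libraries, where M21 has 1730, so the authors' model of Snhg5 was another one. Retained-intron transcripts make up 20 of the 25 transcripts of Gas5 and 14 of the 18 of Snhg1, and merged exons cover 91.3% of the span of Gas5 and all of that of Snhg1. The longest transcript that is not of the retained-intron type has 665 bases in Gas5 and 709 in Snhg1.

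By deposited FPKM, Snhg8 and Gas5 were the highest in every group. In S87L cord Snhg8 averaged 22.1 ± 1.68 and Gas5 21.4 ± 1.45 FPKM (SD, n = 3 each), and their libraries overlapped; in wild-type cord Snhg8 averaged 22.3 ± 0.399 and Gas5 20.1 ± 0.911 FPKM, and their libraries did not. Snhg6, Snhg12, Snhg3, Snhg5 and Snhg1 followed in that order in cord of both genotypes, each above the next in all libraries. In MEF the order was Snhg8, Gas5, Snhg6, Snhg12 and Snhg1, with Snhg8 overlapping Gas5 in both genotypes, and Snhg3 and Snhg5 had means below that of Snhg1 and overlapped each other. In wild-type MEF Snhg3 also overlapped Snhg1, since Snhg3 had 8.39 FPKM in replicate 1 and Snhg1 7.67 to 8.62 FPKM over the 3 libraries. Gas5 gave 31.6% to 36.7% of the summed FPKM of the 7 genes in S87L cord and 33.1% to 33.3% in wild-type cord, and 23.2% and 23.7% in S87L MEF and 22.8% to 23.5% in wild-type MEF.

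Taken per kilobase of the longest transcript not typed as retained-intron, a length chosen after seeing the data, Gas5 stood alone at the top. In FPKM on this length it came to 131 in wild-type MEF and 114 in wild-type cord, against 40.1 and 36.1 for Snhg8. Snhg1, below Snhg12 in MEF by deposited FPKM, came to 36.6 in S87L and 34.3 in wild-type MEF. Snhg12 came to 16.8 in wild-type MEF, on 1538 bases. It has 0 transcripts of the retained-intron type, yet its merged exons cover 100% of its span. Those 1538 bases may thus hold intron sequence, and the order of Snhg1 and Snhg12 is open on this scale. Snhg3 was then the lowest of the 7 in wild-type MEF, at 11.5, and in wild-type cord, at 4.38. This scale assumes that all reads came from spliced transcripts, which the deposited values do not show, and it changes the order of the genes but no ratio between groups.

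**Figure D2:**
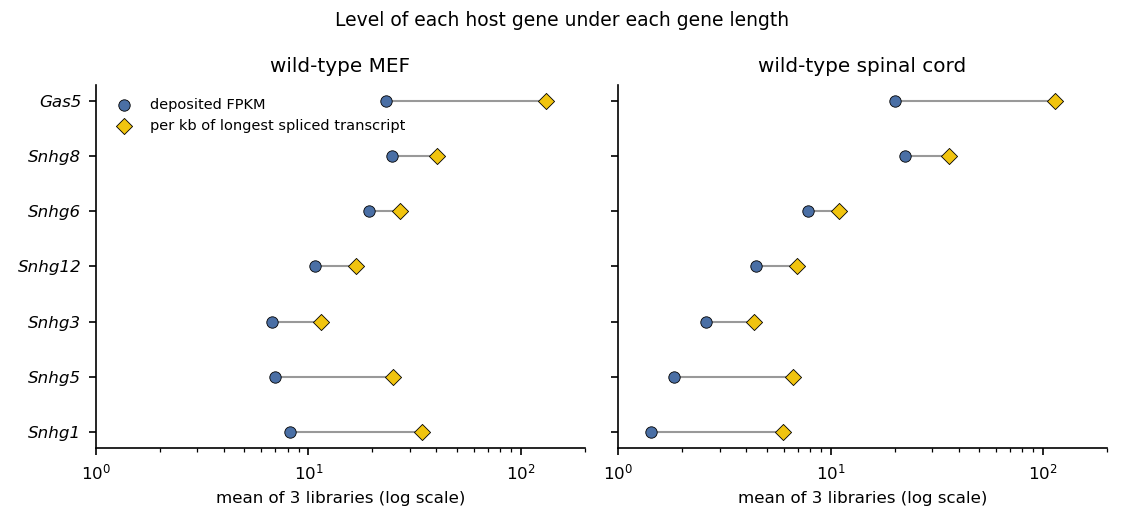
Mean level of each host gene over 3 libraries, on a log axis, in wild-type MEF (left) and wild-type spinal cord (right). Circles are deposited FPKM and diamonds the same reads per kilobase of the longest transcript not typed as retained-intron. Gas5 moves to 131 in MEF and 114 in cord, and Snhg8 to 40.1 and 36.1.

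Depth, as reads recovered from the deposited values, was 19.40 to 23.53 M reads per library in S87L cord and 15.35 to 18.97 M in wild-type cord, without overlap. In MEF it was 14.47 and 12.08 M reads in S87L replicates 1 and 2, and 14.29 to 15.05 M in wild-type libraries. The part of depth in the host gene values was not tested. Markers of the labelled tissues were present: neuronal, astrocyte and oligodendrocyte lists were high in cord and low in MEF, and fibroblast matrix genes were high in MEF. Summed over 5 genes, skeletal muscle markers stood at 48.0 to 50.9 FPKM in S87L cord and 9.82 to 12.7 in wild-type cord, and markers of meninges and fibroblasts at 37.0 to 38.9 and 17.2 to 18.5 FPKM; no marker of these 2 lists was at 0. Further cord lists were higher in S87L without overlap: Schwann cell markers summed to 292 to 307 FPKM in S87L and 247 to 264 in wild-type cord, red blood cell markers to 409 to 447 and 336 to 371, motor neuron markers to 55.5 to 58.9 and 48.9 to 51.1, microglial markers to 69.8 to 72.2 and 64.2 to 65.9, and epithelial markers to 1.36 to 1.68 and 0.873 to 1.32. Lists lower in S87L cord without overlap were those of neurons, at 1556 to 1599 FPKM in S87L and 1619 to 1627 in wild-type cord, oligodendrocytes, at 2861 to 3024 and 3054 to 3150.5, and leukocytes, at 7.08 to 8.45 and 8.59 to 10.9. In MEF the list of microglial markers summed to 61.2 to 62.5 FPKM in S87L and 79.1 to 80.0 in wild-type libraries, and that of meninges and fibroblasts to 2882 to 3142 and 3279 to 3306. The other MEF lists that did not overlap were those of neurons, motor neurons and skeletal muscle, higher in S87L, and those of astrocytes, endothelium, Schwann cells and MEF, lower in S87L. In S87L MEF 1 of 6 neuron, 1 of 5 motor neuron and 1 of 5 skeletal muscle markers averaged at least 0.5 FPKM. The same held for 1 of 4 endothelial and 1 of 4 Schwann cell markers there, and for 1 of 5 epithelial markers in cord. Leukocyte markers at that level were 2 of 4 in S87L and 1 of 4 in wild-type cord. Such sums may rest mostly on 1 gene. The part of these markers in the host gene values was not tested. In bulk samples fewer cells of a type and less RNA per cell cannot be told apart.

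The cord comparison asks whether these transcripts differ with the variant in the tissue that holds motor neurons. None of the 7 host genes was called in S87L cord: limma with Benjamini-Hochberg adjustment over all 15648 genes tested called 0 of 7, with 0 at an unadjusted p under 0.05, where 12.9% of all genes were called, 5.17% higher and 7.71% lower. Their summed level was 62.2 ± 1.82 FPKM in S87L cord and 60.5 ± 2.64 FPKM in wild-type cord (SD, n = 3 each). The median log2 fold change of the 7 was 0.08, beside -0.02 over all genes tested, with 5 positive and 2 negative values. Over all genes tested, 4546 of 15648 had an unadjusted p under 0.05.

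Gas5 had 19.7, 22.2 and 22.1 FPKM in S87L cord, against 19.1, 20.5 and 20.8 FPKM in wild-type cord. The lowest S87L library lay inside the wild-type range and the other 2 above it. Gas5 rested on 1456 to 1899 reads per library in S87L and 1138 to 1299 in wild-type cord, the most of the 7, and its fold change was the most narrowly bounded but one (log2 0.08, SE 0.06, 95% interval -0.06 to 0.22, adjusted p = 0.400). On the linear scale that interval runs from 0.962-fold to 1.17-fold.

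Snhg1 had 1.63, 1.48 and 1.59 FPKM in S87L cord and 1.49, 1.30 and 1.47 FPKM in wild-type cord, from 57 to 100 reads. The lowest S87L library lay just below the highest wild-type library, and the other libraries did not overlap. Its log2 fold change was 0.11 (95% interval -0.07 to 0.28, adjusted p = 0.397).

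Snhg5 had 2.14, 2.28 and 1.95 FPKM in S87L cord and 1.73, 1.92 and 1.86 FPKM in wild-type cord. It was the only host gene whose cord groups did not overlap, which held for 35.1% of all genes tested, and for 13.8% with S87L higher. The log2 fold change of 0.16 (95% interval -0.01 to 0.34) did not pass the test (adjusted p = 0.185, and 0.0666 to 0.274 under the other settings with all libraries). On its 99 to 188 reads, counting alone gave a coefficient of variation of 7.29% to 10.1% per library.

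Snhg6 had 8.29, 8.03 and 6.82 FPKM in S87L cord and 6.89, 7.96 and 8.52 FPKM in wild-type cord. Both groups spread over the same range, and the sign of the log2 fold change of -0.01 (95% interval -0.23 to 0.21, adjusted p = 0.945) changed with quantile or median ratio scaling. Snhg3 had 2.63, 2.63 and 3.04 FPKM in S87L cord and 2.58, 2.54 and 2.63 FPKM in wild-type cord, with 1 S87L library above the rest (log2 0.08, 95% interval -0.07 to 0.24, adjusted p = 0.463). Snhg3 had the fewest reads of the 7 in cord, 37 to 59 per library.

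Snhg8 had 23.2, 22.9 and 20.2 FPKM in S87L cord and 21.9, 22.4 and 22.7 FPKM in wild-type cord. Of the S87L libraries 2 lay above the wild-type range and 1 below it, and the log2 fold change was -0.02 (95% interval -0.15 to 0.12, adjusted p = 0.870), or 0.02 with median ratio scaling. Snhg12 had 4.72, 4.38 and 4.57 FPKM in S87L cord and 3.93, 4.76 and 4.72 FPKM in wild-type cord (log2 0.03, 95% interval -0.15 to 0.21, adjusted p = 0.837). The sign turned to -0.05 without the 1 low wild-type library.

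**Figure D3:**
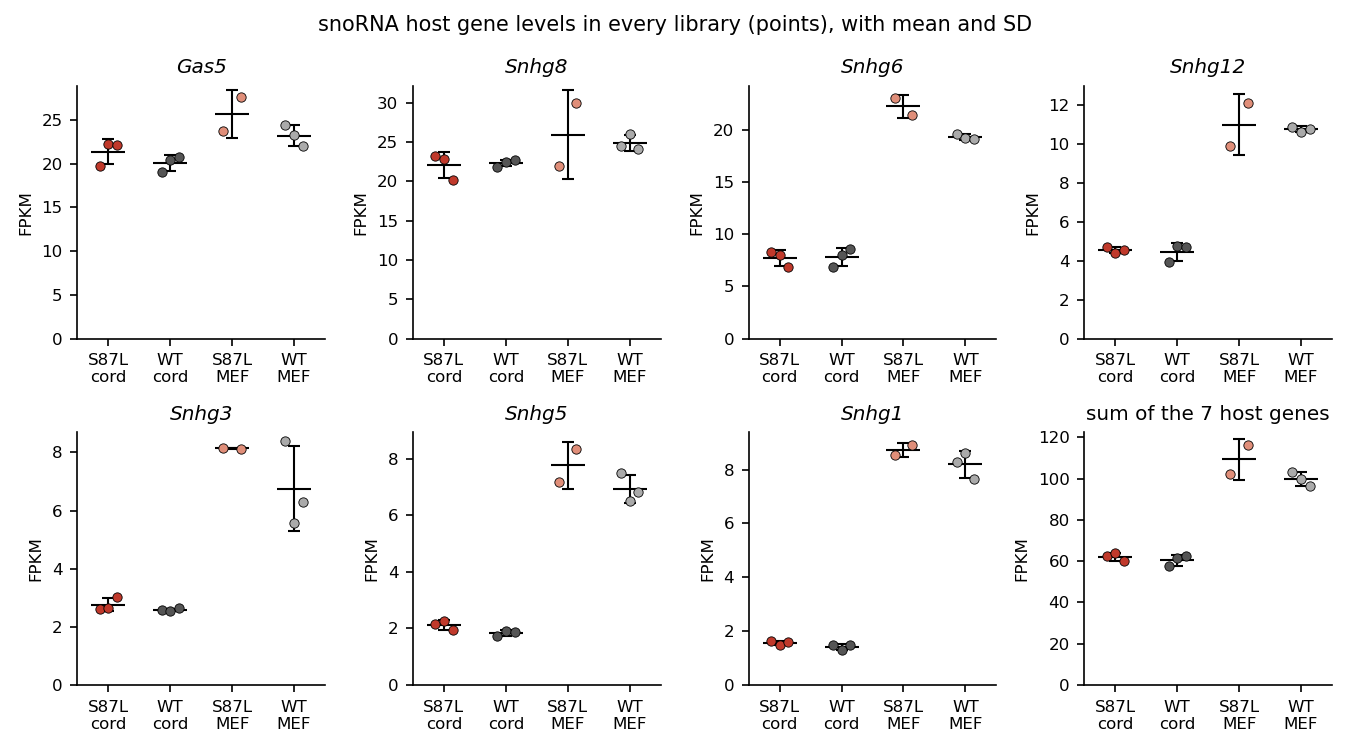
FPKM of each host gene and of their sum in every library (points), with the mean (wide bar) and SD (whiskers) of each group: S87L and wild-type cord, then S87L and wild-type MEF. In cord the genotypes overlap for every gene but Snhg5, and the group means of all 7 genes stand higher in MEF than in cord, by least for Gas5 and Snhg8.

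The MEF comparison asks the same of dividing cells in culture, with 2 S87L libraries. Limma called 1 of the 7 host genes, Snhg6, among 13773 genes tested, where 11.2% of all genes were called, 4.91% higher and 6.32% lower. All 7 fold changes were positive, with a median of 0.14 on the log2 scale, beside -0.01 over all genes tested. Their summed level was 109 ± 9.86 FPKM in S87L MEF (n = 2) and 100 ± 3.40 FPKM in wild-type MEF (SD, n = 3), and the S87L libraries, at 102 and 116 FPKM, overlapped the wild-type range of 96.7 to 103 FPKM.

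Snhg6, the host of Snord87, had 23.0 and 21.4 FPKM in S87L MEF, against 19.6, 19.2 and 19.1 FPKM in wild-type MEF, from 282 to 364 reads. Both S87L libraries lay above all wild-type libraries, which held for 45.8% of all genes in either direction and for 20.8% with S87L higher. The log2 fold change was 0.20 (SE 0.05, 95% interval 0.09 to 0.31, adjusted p = 0.0455), which is 1.15-fold. The call was close to the threshold: it was lost without any 1 of the 3 wild-type libraries or without S87L replicate 1 (adjusted p = 0.113 to 0.148) and held without S87L replicate 2 (adjusted p = 0.0282). It was also lost without the filter, with quantile normalization, with the GC and length trend removed, without the trend and robust settings and in the fit of all 11 libraries (adjusted p = 0.0561 to 0.279). Snhg6 shares 127 exonic bases with Mcmdc2 on the other strand, and Mcmdc2 itself was at or below 0.0147 FPKM in MEF.

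Snhg3 showed the largest MEF difference and the widest interval. It had 8.16 and 8.12 FPKM in S87L MEF and 8.39, 5.58 and 6.28 FPKM in wild-type MEF. Wild-type replicate 1 lay above both S87L libraries and the other 2 far below, so that the log2 fold change of 0.27 had a 95% interval of -0.14 to 0.69 (adjusted p = 0.351). Without wild-type replicate 1 it was 0.43 and passed the test (adjusted p = 0.0434).

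Gas5 had 23.8 and 27.6 FPKM in S87L MEF and 24.4, 23.2 and 22.0 FPKM in wild-type MEF. One S87L library was inside the wild-type range and the other above it (log2 0.14, SE 0.07, 95% interval -0.04 to 0.32, adjusted p = 0.276). Snhg5 had 7.18 and 8.34 FPKM in S87L MEF and 7.47, 6.50 and 6.82 FPKM in wild-type MEF, again with 1 library inside the range and 1 above (log2 0.15, 95% interval -0.05 to 0.35, adjusted p = 0.303).

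Snhg1 had 8.54 and 8.92 FPKM in S87L MEF and 8.29, 8.62 and 7.67 FPKM in wild-type MEF (log2 0.09, 95% interval -0.06 to 0.24, adjusted p = 0.414). Its sign turned to -0.02 with the GC and length trend removed. Snhg8 had 21.9 and 29.9 FPKM in S87L MEF and 24.5, 26.0 and 24.1 FPKM in wild-type MEF, so that the S87L libraries stood on either side of the wild-type range (log2 0.04, 95% interval -0.29 to 0.38, adjusted p = 0.865). Snhg12 had 9.90 and 12.1 FPKM in S87L MEF and 10.9, 10.6 and 10.8 FPKM in wild-type MEF, in the same arrangement (log2 0.02, 95% interval -0.18 to 0.22, adjusted p = 0.892).

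The 2 S87L MEF libraries differed from each other in these genes. In replicate 2, 5 of the 7 host genes were higher than in replicate 1, with a median difference of 0.20 on the log2(FPKM + 0.5) scale and 0.44 for Snhg8, where 6924 of 13773 genes were higher and the median over all genes was 0.00. Ribosomal protein genes moved the same way, with 77 of 78 higher in replicate 2 (median 0.20), as did 31 of 32 protein-coding snoRNA hosts (median 0.11). With replicate 2 left out, the fold changes of Snhg8 and Snhg12 were -0.18 and -0.12. With n = 2 this is a description of a pair of libraries, and no test was made of it.

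**Figure D4:**
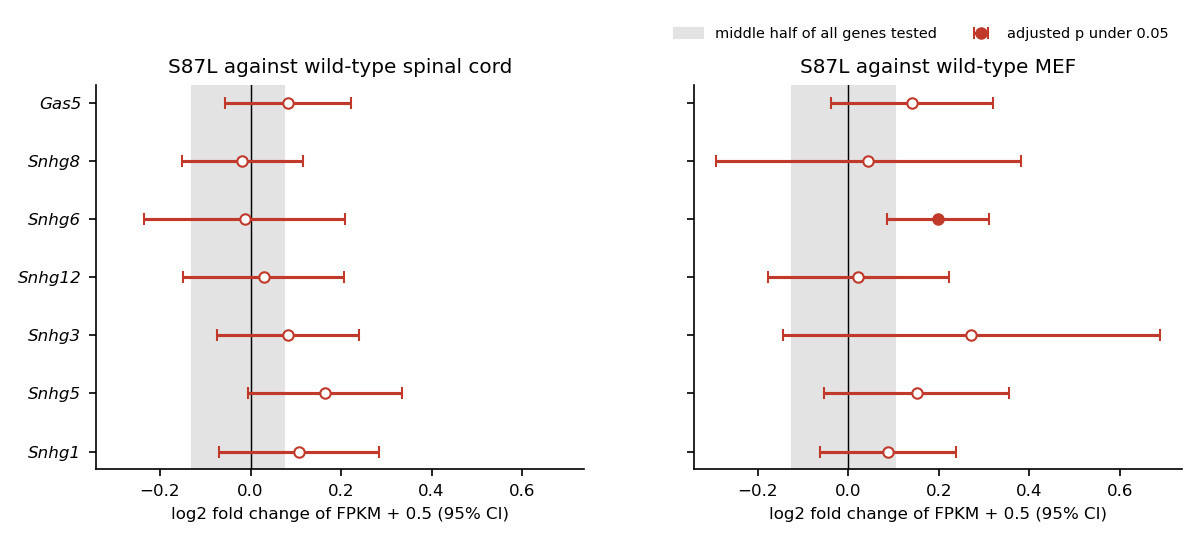
Log2 fold change of FPKM + 0.5, S87L over wild-type, with its 95% interval, for each host gene in spinal cord (left) and MEF (right); the grey band holds the interquartile range of all genes tested and a filled point marks an adjusted p under 0.05. The interval crosses 0 for all 7 genes in cord and for all but Snhg6 in MEF, and it is widest for Snhg3 in MEF, from -0.14 to 0.69.

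Whether the genotype effect differed between MEF and cord was tested as an interaction over all 11 libraries. Limma called 0 of the 7 host genes, where 13.1% of 15811 genes were called, 6.14% higher in MEF and 6.98% lower. Of the 7, 0 had an unadjusted p under 0.05, beside 4580 of all 15811 genes. The difference was largest for Snhg6, whose effect was higher in MEF than in cord by 0.21 on the log2 scale (95% interval -0.06 to 0.48, adjusted p = 0.287). For the others it lay between -0.02 for Snhg1 and 0.19 for Snhg3.

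Between the tissues themselves all 7 host genes were called higher in wild-type MEF than in wild-type cord. Limma called 87.6% of 15962 genes between the tissues with 40.3% higher and 47.4% lower in MEF, so a call by itself separates few genes here. The 7 had a median log2 fold change of 1.22, beside -0.12 over all genes tested; quantile normalization moved that median to 0.15, and the 7 calls were higher in MEF under every setting tried, 98 values in all.

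The genes fell apart by size. Snhg1, at 8.29, 8.62 and 7.67 FPKM in wild-type MEF and 1.49, 1.30 and 1.47 FPKM in wild-type cord, showed the widest gap, with every MEF library above 7 FPKM and every cord library below 2 (log2 2.18, SE 0.07, adjusted p = 2.20e-08). Snhg5 followed at 6.93 ± 0.497 FPKM in MEF and 1.84 ± 0.0941 FPKM in cord (SD, n = 3 each; log2 1.67, adjusted p = 9.63e-08). Snhg6 averaged 19.3 ± 0.283 FPKM in MEF and 7.79 ± 0.829 FPKM in cord (log2 1.26, adjusted p = 9.85e-07). Snhg1, Snhg5 and Snhg6 hold box C/D snoRNAs, and so does Gas5, whose difference was among the 2 smallest (log2 0.20).

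Snhg3 averaged 6.75 ± 1.46 FPKM in wild-type MEF and 2.58 ± 0.0480 FPKM in wild-type cord (log2 1.22, adjusted p = 5.77e-05), and Snhg12 10.8 ± 0.142 and 4.47 ± 0.466 FPKM (log2 1.19, adjusted p = 1.30e-06). Gas5 and Snhg8, the most abundant by FPKM, showed the smallest differences. Gas5 averaged 23.2 ± 1.17 FPKM in MEF and 20.1 ± 0.911 FPKM in cord (log2 0.20, 95% interval 0.08 to 0.32, adjusted p = 0.00676), and Snhg8 24.8 ± 1.01 and 22.3 ± 0.399 FPKM (log2 0.15, 95% interval 0.06 to 0.24, adjusted p = 0.00849). The intervals of these 2 genes do not reach those of the other 5, the lowest of which starts at 0.91 for Snhg3. In the S87L libraries Snhg8 overlapped between the tissues, at 21.9 and 29.9 FPKM in MEF and 20.2 to 23.2 FPKM in cord.

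Genes with related work were set beside them from lists chosen with earlier results of these data known. Ribosomal protein genes were called higher in wild-type MEF in 78 of 78 cases (median 1.05), ribosome biogenesis genes in 23 of 25 with 1 lower (median 0.97), and protein-coding hosts of snoRNAs in 29 of 32 with 3 lower (median 1.12). The 3 lower ones were the translation factor Eif4a2 (-2.13), the chaperone Hspa8 (-0.36) and the ATP synthase subunit Atp5b (-0.32). Proteins of the snoRNA particles and their assembly were higher in 14 of 18 cases and lower in 4 (median 0.59), with the methyltransferase Fbl, which box C/D snoRNAs guide, at 2.03. The other noncoding hosts were more mixed, with 7 of 11 higher and 4 lower (median 0.54): Snhg18 and Snhg15 were higher by 2.55 and 2.10, and Snhg11, Snhg14, Snhg10 and Snhg20 were lower, with log2 fold changes of -6.86, -2.76, -1.62 and -1.06.

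**Figure D5:**
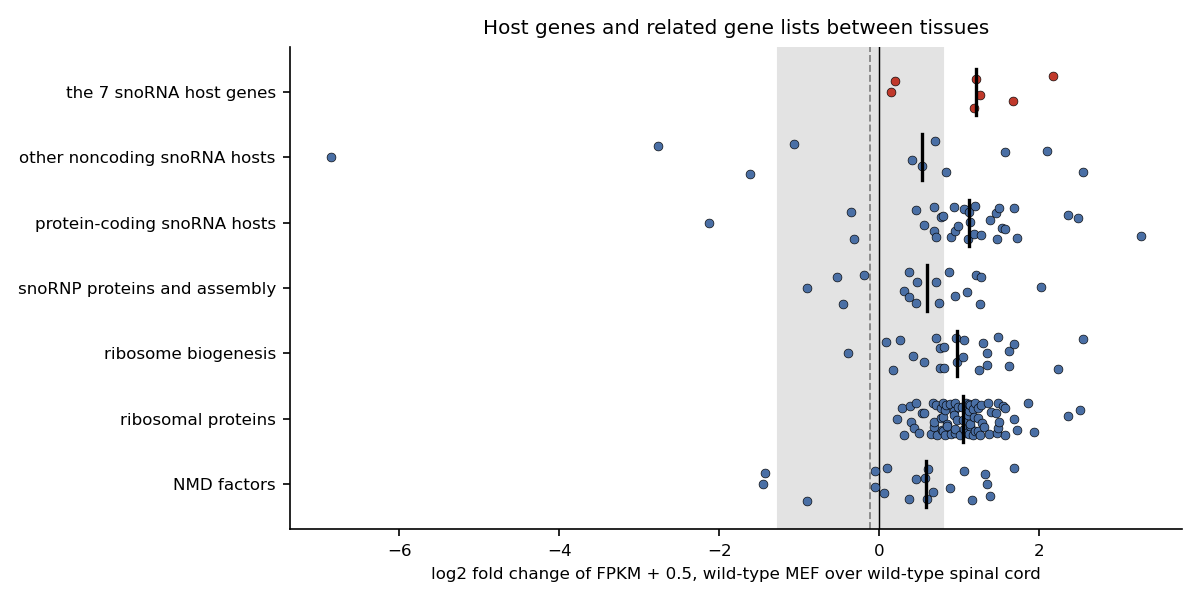
Log2 fold change of FPKM + 0.5, wild-type MEF over wild-type spinal cord, of each tested gene (points) by list, with the list's median (black bar); the grey band holds the interquartile range of all genes tested and the dashed line their median of -0.12. The 7 host genes (red) all lie right of 0, with Gas5 and Snhg8 closest to it, and ribosomal protein genes centre on 1.05.

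With genotype in cord, where 12.9% of all genes were called, the same lists differed in their counts. Calls were made for 0 of the protein-coding hosts, snoRNA particle proteins, ribosomal protein genes and NMD factors, for 2 of 10 other noncoding hosts, 2 of 8 NMD-sensitive transcripts, 4 of 14 regulators of mRNAs with a 5′ pyrimidine tract and 4 of 25 ribosome biogenesis genes. No test was made of a list. Of the 10 tested other noncoding hosts 2 fell in S87L cord and 0 rose (median -0.16): Snhg11, which M21 types as protein-coding, averaged 26.9 ± 0.635 FPKM in S87L and 58.4 ± 1.56 FPKM in wild-type cord (log2 -1.11, SE 0.04, adjusted p = 2.09e-05), and Snhg14, which hosts the brain snoRNA clusters of the Prader-Willi region, 2.46 ± 0.171 and 3.69 ± 0.459 FPKM (log2 -0.50, adjusted p = 0.0148). The Snhg11 call held with any 1 library left out, and that of Snhg14 was lost, with an adjusted p of up to 0.0599, when wild-type replicate 3 or either of S87L replicates 1 and 2 was left out. Of the next 2 by p, Snhg17 had a log2 fold change of -0.34 (adjusted p = 0.0829) and Snhg9 of -0.92 (adjusted p = 0.140). Both were low, near the filter of 0.5 FPKM. Snhg17 averaged 0.434 FPKM in S87L and 0.682 FPKM in wild-type cord. For Snhg9 the means were 0.373 ± 0.454 and 1.04 ± 0.385 FPKM, with S87L replicate 1 at 0. Limma called 0 of 32 protein-coding hosts, with 8 at an unadjusted p under 0.05, 0 of 18 snoRNA particle proteins, with 2, and 0 of 78 ribosomal protein genes, with 11. Their medians were 0.03, -0.03 and 0.04, each inside the interquartile range of all genes. In cord 4546 of all 15648 genes had an unadjusted p under 0.05.

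NMD, which degrades spliced Gas5, gave 0 called factors of 20 in S87L cord. Of the 20, 3 had an unadjusted p under 0.05, beside 4546 of all 15648 genes. The decapping activator Dcp1a, the exonuclease Xrn1 and the kinase Smg1 had fold changes of -0.18, -0.19 and -0.22. Of 8 coding transcripts that NMD is known to limit, the growth arrest genes Gadd45a (log2 0.31, adjusted p = 0.00524) and Gadd45b (0.34, adjusted p = 0.0292) rose and 0 fell. Of 14 regulators of mRNAs with a 5′ pyrimidine tract, the RNA-binding proteins Tia1 and Tial1 fell by 0.38 and 0.25, and the translation repressors Eif4ebp1 and Eif4ebp2 rose by 0.39 and 0.19. Of 25 ribosome biogenesis genes Utp14a rose by 0.26, and Nat10, Rrp12 and Ddx21 fell by 0.33, 0.27 and 0.16. The calls of Gadd45a, Tia1, Nat10 and Rrp12 held with any 1 of the 6 libraries left out. Those of Eif4ebp1 and Ddx21 were lost without any 1 of them (adjusted p = 0.0575 to 0.155). Gadd45b held without S87L replicate 3 alone, Eif4ebp2 without wild-type replicate 1 alone, Utp14a without wild-type replicate 2 alone, and Tial1 without wild-type replicate 1 or S87L replicate 3. Without the filter on low values these 6 calls were lost as well. Eif4ebp2 was also lost without the trend and robust settings, Tial1 with median ratio scaling, and Ddx21 with quantile or median ratio scaling. The cell type lists given above that separated the cord genotypes did so in the same libraries, and their part in these calls was not tested.

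In S87L MEF limma called 0 of 9 other noncoding hosts, with 0 at an unadjusted p under 0.05, and 0 of 78 ribosomal protein genes, with 3. Such a p was found for 3849 of all 13773 genes. The nucleolar GTPase Gnl3, a protein-coding host, rose by 0.22 (adjusted p = 0.0256). Among snoRNA particle proteins Naf1, an assembly factor of H/ACA particles, rose by 0.31 (adjusted p = 0.0465) and Pih1d1, of the R2TP assembly complex, fell by 0.24 (adjusted p = 0.0223). The nucleolar chaperone Npm1 rose by 0.24, the cap-binding protein Eif4e by 0.18 and the release factor Etf1 by 0.17, and the NMD factor Smg9 and the NMD-sensitive transcript Tbl2 fell by 0.24 and 0.35. Each list held at most 1 call in a direction, where 11.2% of all genes were called. With 1 of the 5 libraries left out in turn, Tbl2 kept its call in 4 of 5 cases, Gnl3, Naf1, Pih1d1, Etf1 and Npm1 in 1 of 5 and Smg9 and Eif4e in 0 of 5. Apart from Tbl2, these calls were also lost without the filter on low values and without the trend and robust settings. Pih1d1, Smg9, Etf1, Eif4e and Npm1 were lost with the GC and length trend removed, Pih1d1 and Smg9 in the fit of all 11 libraries and Smg9 with median ratio scaling (adjusted p up to 0.376 over all settings, for Eif4e).

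Neighbouring genes that start head to head with a host were read as well. Zbtb37, a zinc finger gene on the other strand, starts inside the span of Gas5, 427 bases past the M21 start of Gas5. Its log2 fold change was -0.18 in S87L cord (adjusted p = 0.162) and 0.20 in S87L MEF (adjusted p = 0.255). Slc3a2, the amino acid transporter chain that starts 106 bases from Snhg1, had 0.11 in S87L cord (adjusted p = 0.120) and -0.16 in S87L MEF (adjusted p = 0.0667), while Snhg1 itself had 0.11 and 0.09. Between the wild-type tissues Slc3a2 and Snhg1 were both higher in MEF, by 1.30 and 2.18, and Zbtb37 had 0.03 (adjusted p = 0.697) where Gas5 had 0.20. Rcc1, the exchange factor of the Ran GTPase, overlaps Snhg3 by 135 exonic bases on the same strand, so reads in those bases cannot be told apart; it was higher in wild-type MEF by 2.18 and had a fold change of -0.04 in S87L cord and 0.01 in S87L MEF.

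Start regions of the hosts are shown because all 7 genes were higher in MEF, though by unequal amounts. The sequences are from RefSeq (build GRCm38.p6), 50 bases before to 40 bases from the annotated start, 5′ to 3′ on the gene's strand. Capitals mark a TATA that begins 20 to 40 bases before the start and the longest run of C and T that touches the 5 bases on either side of it. The regions are chr1:161035116-161035205 for Gas5 (plus strand, the second of its 2 annotated starts), chr19:8723437-8723526 for Snhg1 (plus), chr9:88522858-88522947 for Snhg5 (minus), chr4:132353647-132353736 for Snhg3 (minus), chr3:123508297-123508386 for Snhg8 (minus) and chr4:132308628-132308717 for Snhg12 (plus). Snhg6 is named only.
Gas5: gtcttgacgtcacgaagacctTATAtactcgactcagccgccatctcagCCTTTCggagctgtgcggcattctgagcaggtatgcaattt
Snhg1: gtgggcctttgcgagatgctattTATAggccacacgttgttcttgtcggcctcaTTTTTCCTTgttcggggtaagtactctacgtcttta
Snhg5: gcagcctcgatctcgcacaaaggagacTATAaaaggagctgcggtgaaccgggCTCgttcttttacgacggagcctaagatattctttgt
Snhg3: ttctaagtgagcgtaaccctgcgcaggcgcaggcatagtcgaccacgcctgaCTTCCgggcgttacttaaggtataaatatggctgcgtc
Snhg8: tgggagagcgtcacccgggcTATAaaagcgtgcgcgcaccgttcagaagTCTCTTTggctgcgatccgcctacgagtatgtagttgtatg
Snhg12: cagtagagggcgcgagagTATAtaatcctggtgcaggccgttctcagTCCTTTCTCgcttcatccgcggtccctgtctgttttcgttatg

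The letters TATA, which read the same on both strands, stood in that window in 5 of 7 start regions, counting both starts of Gas5, against 1874 of 32851 RefSeq start regions (5.70%). A run of C and T of at least 5 bases touched the bases around the start in 5 of 7. This held for 32.9% of all start regions and 51.5% of those of ribosomal protein genes. In Snhg1 and Snhg3 the run began 4 and 2 bases after the start and did not include it. Both patterns were looked for after the sequences had been seen, and a match is a description of letters. The upstream start of Gas5 had neither pattern, and Snhg8 and Gas5, the 2 genes that changed least between tissues, had both, as did Snhg1 and Snhg12.

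The genes most like the hosts over the 11 libraries were ranked by Pearson's r between each gene's log2(FPKM + 0.5) and the mean of the 7. Of 9955 named genes, Rpl23, a protein of the large ribosomal subunit (r = 0.998), the palmitoyltransferase Zdhhc12, the growth-related Tpt1, itself a snoRNA host, the nuclear import factor Nutf2 and the small-subunit protein Rps13 (r = 0.997 each) came first. The libraries divide by tissue and share its composition, and 31.6% of the genes had an r of at least 0.95. Rpl23 averaged 151 FPKM in S87L MEF, 138 in wild-type MEF, 67.8 in S87L cord and 65.8 in wild-type cord.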

How the data were processed

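The authors deposited FPKM values for 55487 Ensembl identifiers in 11 libraries. Per the labels' protocols, total RNA was made into libraries with a directional kit, and no enrichment or depletion step was found there. Per the submitters' processing notes, the build was GRCm38 and the tools were HTSeq 0.11.3, Picard 2.25.5, HISAT2 2.2.1 and Trimmomatic 0.39. Not given in the sources used here are the annotation release and the strand setting of the counting, so an antisense gene and its partner may share reads. Symbols came from GENCODE M21, in which 55227 identifiers were found. Library titles gave group and replicate number.

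FPKM times merged exon length gave whole reads, within 0.05, for 98.15% to 98.53% of values above 0 per library. The member reads, their counting errors and the depths are these recovered reads, and counting errors cover sampling of reads alone. Limma 3.58.1 (R 4.3.3), with its trend and robust options, was run on log2(FPKM + 0.5) for each comparison. A gene entered a fit if its FPKM averaged 0.5 or more over the libraries used, and was called where its p, adjusted by Benjamini-Hochberg across the genes of that fit, was below 0.05. Such fold changes understate the change of low genes. Cord and MEF were fitted apart, the interaction over all 11 libraries and the tissues over wild-type libraries. SE and 95% intervals are limma's. The fits were tested on simulated data.

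The members and lists were chosen with earlier results of these data known. Besides all 7 host genes, the text names up to 4 genes per list with the smallest p, the head-to-head neighbours, overlapping genes, snoRNA features inside a host and the 5 genes most like the hosts; the tissue paragraph also names list members chosen after their values were seen. The listed symbols Snhg4, Snhg7, Snhg16 and Nhp2l1 matched no identifier, so no values were read under these names. Alternatives were other pseudocounts, filters, scalings and variance settings, removal of the GC and length trend, a replicate block, 1 fit of all 11 libraries, leaving out each library and, for levels, another gene length.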

Additional observations from a re-analysis of the deposited data

Results flagged for a closer look

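None of the 7 host genes met a rule for a closer look. Among the related genes named in the report, 14 had a genotype effect that differed between MEF and spinal cord by limma's interaction term over all 11 libraries (adjusted p under 0.05). Of all 15811 genes, 13.1% were called in this fit. Most of the related genes were named for a small p by genotype in these same libraries, which favours an interaction call. The count of 14 is therefore no result about related genes. Values are the MEF effect minus the cord effect on the log2(FPKM + 0.5) scale, and no explanation of them was tested.

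Among the other noncoding snoRNA hosts the value was 1.20 for Snhg11, 0.53 for Snhg14 and 0.38 for Snhg17. Snhg11 and Snhg14 did not pass the filter in MEF, where they averaged 0.0425 and 0.131 FPKM in S87L and 0.00860 and 0.115 FPKM in wild-type libraries. They entered this fit through cord, so their values restate the cord effects of -1.11 and -0.50 and do not compare effects in 2 tissues. Among NMD and decay factors it was 0.49 for the exonuclease Xrn1, 0.48 for the kinase Smg1 and 0.28 for the decapping activator Dcp1a. The RNA-binding proteins Tia1 and Tial1 had 0.49 and 0.29. Of the ribosome biogenesis genes, Ddx21 had 0.33, Nat10 0.31 and Rrp12 0.31. The protein-coding host Gnl3 had 0.26 and the box C/D particle protein Nop58 0.23. Slc3a2, the head-to-head neighbour of Snhg1, had -0.27 (adjusted p = 0.0135).

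Leaving out each of the 11 libraries in turn, a check chosen after seeing the data, kept the calls of Tia1 and Ddx21 in 11 of 11 cases and that of Xrn1 in 10. Nat10 kept its call in 7, Rrp12 in 6, Nop58 and Dcp1a in 5, Gnl3 in 4, Smg1 and Tial1 in 3 and Snhg17 in 2. Of the 9 other settings, Tia1 and Ddx21 kept their calls in all 9 and Xrn1 in 8. Calls were lost with quantile normalization for Snhg17, Gnl3, Nop58, Smg1 and Dcp1a, with median ratio scaling for Nop58, Smg1, Dcp1a, Tial1 and Nat10, without the filter for Snhg17, Smg1, Tial1 and Rrp12, and with GC and length correction for Nop58 and Tial1. Snhg17 was also lost with a pseudocount of 1 and Smg1 without the trend and robust settings. The highest adjusted p over these settings was 0.439, for Nop58. These checks were not made for Slc3a2.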

How the results depend on the processing

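The calls rest on 3 cord libraries a genotype and on 2 S87L against 3 wild-type MEF libraries, and Snhg3 in cord on 37 to 59 reads per library. No host gene was called in cord or in the interaction under any setting tried, and all 7 were called higher in MEF under every setting of the tissue comparison.

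The MEF call of Snhg6 was the only host call by genotype, and the count of 1 went to 0 without the filter, with quantile normalization, after removal of the GC and length trend, without the trend and robust settings, with a replicate block (Snhg6 adjusted p = 0.221) and in the fit of all 11 libraries. It ran from 0 to 1 with 1 library left out. Without wild-type replicate 1 the single call was Snhg3.

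Signs near 0 turned. In cord, Snhg6 was 0.0049 with quantile and 0.027 with median ratio scaling, and Snhg8 was 0.024 with median ratio scaling. In MEF after GC and length correction, Snhg1 was -0.018 and Snhg8 -0.0027. In the interaction Snhg5 was 0.0048 with a pseudocount of 1, and Gas5 was -0.0078 and Snhg12 0.0029 after GC and length correction. With 1 library left out, cord values ran from -0.094 to 0.067 for Snhg6, -0.055 to 0.045 for Snhg8 and -0.051 to 0.072 for Snhg12. MEF values ran from -0.18 to 0.26 for Snhg8 and -0.12 to 0.16 for Snhg12. Interaction values ran from -0.048 to 0.16 for Gas5, -0.063 to 0.028 for Snhg1, -0.12 to 0.088 for Snhg5, -0.16 to 0.28 for Snhg8 and -0.15 to 0.13 for Snhg12.

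Over all genes, the 2016 cord calls became 3360 after GC and length correction, and 838 to 1637 with 1 library left out. The 1547 MEF calls became 788 without the filter, 182 with the replicate block and 565 to 1753 with 1 library left out. The block gives each replicate number its own term. Wild-type MEF replicate 3, without an S87L partner, then adds nothing to the genotype estimate, and little is left to estimate the spread. A MEF call lost with the block therefore says little about the gene. The 2075 interaction calls became 1030 with the replicate block and 1373 to 2261 with 1 library left out. The cause was not tested. The share of calls that were higher in S87L was 40.1% in cord, against 58.5% with median ratio scaling and 54.4% after GC and length correction. In MEF it was 43.7%, against 29.1% with the replicate block. Of the interaction calls, 46.8% had a higher genotype effect in MEF than in cord, against 32.9% with median ratio scaling. Deviations from the group means had r = 0.14, -0.08 and 0.18 between same-numbered cord libraries, and -0.25 to 0.15 between unlike numbers. In MEF r was -0.13 and -0.08. There the deviations of the 2 S87L libraries mirror each other, so these values cannot show pairing. The labels name no pairs, and the numbers were not read as such. Among the listed genes the replicate block ended the cord calls of Eif4ebp1, Eif4ebp2, Utp14a and Ddx21, all 8 MEF calls, and the interaction calls of Snhg14, Snhg17, Gnl3, Nop58, Smg1, Xrn1, Dcp1a, Rrp12 and Nat10. Snhg14 lost its interaction call with GC and length correction too (adjusted p up to 0.748). The checks of single listed genes and the other gene length for levels were chosen after seeing the data.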
